A study of Homo sapiens with 24 samples.

Results

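BIRC3 and 9 NF-kB genes that encode regulators, subunits or adaptors of the pathway were followed in newly made RNA over 3 h of dexamethasone. The 10 genes were named by their place in the pathway, with earlier results of these data known: the inhibitors of apoptosis BIRC3 (cIAP2) and BIRC2 (cIAP1), the ubiquitin editor TNFAIP3 (A20), the inhibitor proteins NFKBIA, NFKBIB and NFKBIE, the NF-kB subunits NFKB1, NFKB2 and RELB, and the adaptor TRAF1. All 10 had a row among the 61533 genes of the count table, and all 10 were among the 23651 genes that passed the low-count filter. RNA was labelled with 200 µM 4-thiouridine in the last hour of each treatment, purified and sequenced (4sU-seq). The cells were U2OS, a human osteosarcoma line with very little glucocorticoid receptor (GR) of its own, kept in serum stripped of hormones. Every line carried a PiggyBac insert that drives GR-HaloTag from the CMV promoter: wild-type GR (wt), the K492A mutant with reduced RNA binding (SoF), or the R470A mutant (Ctrl), which binds DNA less well and controls for a loss of DNA binding that SoF also shows. Each line was a single puromycin-selected and sorted pool, so construct and pool cannot be told apart. Dexamethasone, a synthetic glucocorticoid, was given at 100 nM for 1, 2 or 3 h, and the 0 h cells received 0.01% ethanol instead. How long the ethanol was given is not stated, and no ethanol group was matched to each time. The medium was replaced when treatment began, so hours of dexamethasone and hours since the medium change cannot be told apart. There were 2 libraries in each of the 12 groups, 24 in all. The labels do not say whether the 2 libraries came from separate cultures, so p-values measure the spread between these libraries, which may be technical.

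NF-kB is a family of dimeric transcription factors held in the cytoplasm by IkB proteins. When a receptor such as the TNF receptor is engaged, IkB is degraded and the freed dimers switch on genes that include their own inhibitors, so that NFKBIA and TNFAIP3 act as negative feedback. BIRC3 and BIRC2 are ubiquitin ligases of the TNF receptor complex that restrain the noncanonical arm of the pathway and limit cell death. Ligand-bound GR is known both to activate genes through its DNA elements and to antagonise NF-kB at inflammatory genes.

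BIRC3 lies on chromosome 11 (102317484 to 102339403, plus strand, hg38), and its paralog BIRC2 starts 7807 bp downstream on the same strand (102347211 to 102378670). Reads shared by near-identical stretches of the pair could be split between them by the authors' counting. Exons of BIRC3, TNFAIP3 and NFKBIB overlap exons of an opposite-strand gene over 126, 95 and 40 bp, at most 1.7% of the member's exon length. The promoter sequences are shown for BIRC3, the member with the largest change, for its neighbour BIRC2, and for NFKBIA and NFKB1, which changed at 2 h. Each is the 250 bases before the RefSeq start (GRCh38.p14), written 5′ to 3′ on the gene's strand, with matches to the kappa-B consensus in capitals.
BIRC3, chr11:102317234-102317483, plus strand: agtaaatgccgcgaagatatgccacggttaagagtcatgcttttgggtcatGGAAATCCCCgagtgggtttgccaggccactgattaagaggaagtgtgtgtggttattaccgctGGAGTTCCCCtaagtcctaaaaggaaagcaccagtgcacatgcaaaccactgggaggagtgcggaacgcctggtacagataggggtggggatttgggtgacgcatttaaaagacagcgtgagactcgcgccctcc
BIRC2, chr11:102346964-102347213, plus strand: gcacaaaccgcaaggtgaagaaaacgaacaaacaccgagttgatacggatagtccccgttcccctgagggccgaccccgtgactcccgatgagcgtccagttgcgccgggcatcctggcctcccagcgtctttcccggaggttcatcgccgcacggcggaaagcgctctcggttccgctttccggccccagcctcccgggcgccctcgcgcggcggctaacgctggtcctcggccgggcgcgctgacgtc
NFKBIA, chr14:35404750-35404999, minus strand: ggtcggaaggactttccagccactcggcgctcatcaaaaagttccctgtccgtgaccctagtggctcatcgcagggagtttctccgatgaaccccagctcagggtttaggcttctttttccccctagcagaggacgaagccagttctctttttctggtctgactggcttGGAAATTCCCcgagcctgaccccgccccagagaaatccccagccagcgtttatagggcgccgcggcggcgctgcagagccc
NFKB1, chr4:102501109-102501358, plus strand: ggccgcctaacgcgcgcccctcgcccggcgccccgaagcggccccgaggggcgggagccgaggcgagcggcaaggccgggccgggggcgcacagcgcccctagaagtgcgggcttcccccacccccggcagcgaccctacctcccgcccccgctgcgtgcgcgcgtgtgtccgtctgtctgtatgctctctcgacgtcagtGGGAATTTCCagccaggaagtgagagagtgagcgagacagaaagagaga
The kappa-B consensus, the element that NF-kB dimers bind, was searched on both strands. It matched 2 places in the BIRC3 window, at bases -199 to -190 and -135 to -126 from the start. The BIRC2 windows held none. RefSeq gave windows for 8 of the 10 members (all but NFKBIE and RELB), and 6 of these 8 had at least 1 match: BIRC3, TNFAIP3, NFKBIA, NFKBIB, NFKB1 and NFKB2. Some genes have several starts, and 7 of the members' 15 windows matched, against 5.21% of all 35116 RefSeq windows of this length. The letters GGAATTTCC were found for NFKBIA, NFKBIB and NFKB1 (0.413% of all windows), each time within a match to the consensus. A form of the full GR element, AGAACA followed after 3 bases by TGTTCT, was in no member window and in 1 of all 35116 windows (0.00285%). Its left arm AGAACA, on either strand, was found for TRAF1 alone among the members (12.4% of all windows). A match in these letters is a description of the sequence, not a bound site, and a missing match does not show that a site is lacking. The full form is too rare for its absence from 15 windows to tell anything about the members. The paper states that GR prefers enhancers far from gene starts, which these windows do not cover. In GR peaks near the starts of a gene set that includes BIRC3, the paper reports motifs close to the full element.

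Libraries held 8106036 to 15820806 counts, and a level here is a CPM value, the count of a gene relative to its library's total. The lowest count of any member in any library was 57, for TRAF1 in wt at 1 h. NR3C1, which encodes GR, was read in every library (334 to 7658 CPM), at 771 ± 458 CPM in wt, 2855 ± 1926 in SoF and 3503 ± 2099 in Ctrl (SD over the 8 libraries of a line, all times). It was lower in wt than in SoF (log2 difference 1.89, adjusted p = 0.00634) and than in Ctrl (2.18, adjusted p = 0.00261), and whether this bears on the members was not tested. NR3C1 RNA also changed with time, and its mean was lower at 3 h than at 0 h in each line. It was 350 against 688 CPM in wt, 1124 against 2630 in SoF and 1696 against 3317 in Ctrl. These values are newly made RNA and do not tell the inserted GR from the cells' own gene. For protein, the study picked sorted fractions so that nuclear GR after dexamethasone was alike between the lines by immunofluorescence. The mesenchymal marker VIM (490 to 913 CPM), the collagen gene COL1A1 (250 to 1008 CPM) and the bone regulator RUNX2 (51.5 to 158 CPM) were read throughout. The osteoblast marker ALPL read 8.07 to 44 CPM. The osteoblast markers SP7 and COL1A2 were at or near 0 (at most 0.172 and 0.602 CPM), and BGLAP and SPP1 were low (at most 1.32 and 3.12 CPM). Summed markers reached at most 4.5 CPM for blood, 11 for epithelial and 5.81 for endothelial cells.

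Per kilobase of exon, NFKBIA was the most abundant member, with a mean of 201 CPM per kb over the 24 libraries, and its lowest library (101) lay above the highest library of every other member (at most 98.7, for BIRC3). The other means descended from TNFAIP3 (52.6) through BIRC3 (33.1), NFKBIE (30), BIRC2 (18.4), RELB (16.6), NFKB2 (14.1), NFKBIB (9.86) and NFKB1 (7.37) to TRAF1 (5.18). Neighbours in this order overlapped in their ranges, apart from NFKBIA.

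**Figure D1:**
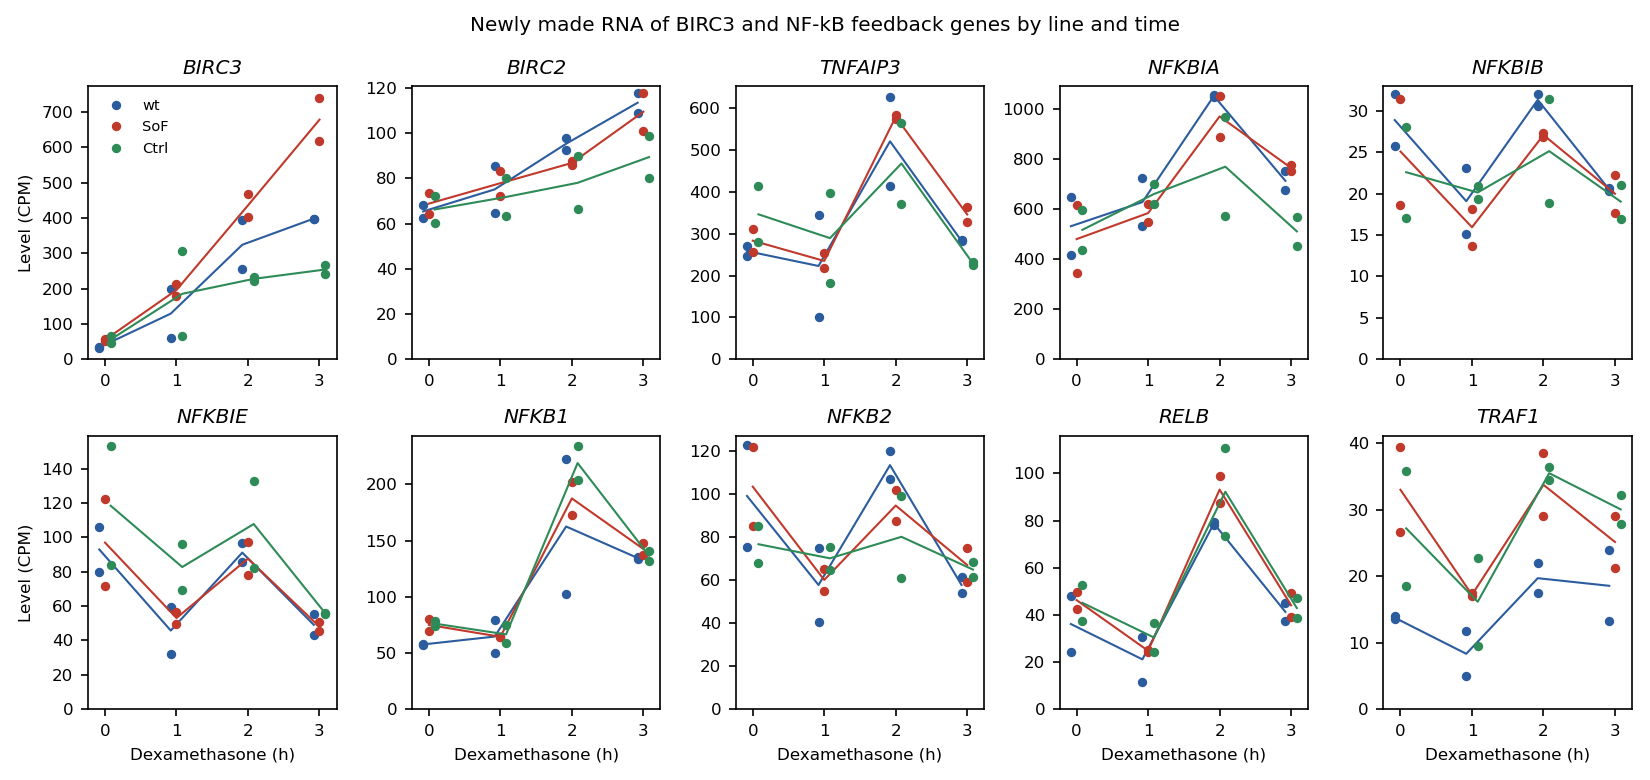
Level in CPM (linear axes from 0) against hours of dexamethasone for the 10 genes, with a point for each library and lines through the means of 2 libraries in wt, SoF and Ctrl GR cells. BIRC3 climbs to 398 CPM in wt, 618 and 738 in SoF and 242 and 266 in Ctrl at 3 h, while RELB peaks at 2 h in all 3 lines.

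BIRC3 showed the largest change of the members, at every time and in all 3 lines. In wt it stood at 35.1 and 31.6 CPM at 0 h, 60.4 and 198 at 1 h, 254 and 394 at 2 h, and 398 in both libraries at 3 h. In SoF the levels were 56.9 and 52.8 CPM at 0 h, 213 and 179 at 1 h, 468 and 403 at 2 h, and 618 and 738 at 3 h. In Ctrl they were 65.4 and 46.4 CPM at 0 h, 306 and 64.4 at 1 h, 234 and 221 at 2 h, and 242 and 266 at 3 h. All 2 h and 3 h libraries lay above all 0 h libraries of their line, and the 2 libraries at 1 h were far apart in wt and Ctrl. With 2 libraries a group a lack of overlap is common, here and for the members below. From 1 to 2 h, both libraries lay above both earlier ones in 29.1% (wt), 30.7% (SoF) and 28.9% (Ctrl) of tested genes. The like shares against 0 h and between lines are not given here.

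At 3 h against 0 h, 4 of the 10 members were called in wt and 4 in SoF at an adjusted p under 0.05, and 3 in Ctrl, where 10.7%, 19.3% and 14.2% of all tested genes were called. DESeq2 called 5, 4 and 3 members, beside 2490, 4244 and 3372 of 48707 genes with a count. BIRC3 rose 11.9-fold in wt (log2 3.57, SE 0.49, adjusted p = 5.3e-05), 12.3-fold in SoF (3.63, SE 0.49, 2.29e-05) and 4.53-fold in Ctrl (2.18, SE 0.46, 0.00309). The Ctrl call was lost without 0 h replicate 2 (log2 1.95), and those of wt and SoF held with every library left out in turn. BIRC3 and NFKB1 were called higher in all 3 lines, as were 4.2% of tested genes, and NFKBIE was called lower in all 3, as were 2.31%. For the 10 members the median log2 change was 0.31 (wt), 0.11 (SoF) and -0.05 (Ctrl), beside -0.03, -0.03 and -0.02 over all tested genes.

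BIRC2 changed less than its neighbour. Its levels in wt were 62.5 and 68.3 CPM at 0 h, 64.9 and 85.4 at 1 h, 92.8 and 97.9 at 2 h, and 109 and 118 at 3 h. At 3 h SoF held 101 and 118 CPM against 64.1 and 73.6 at 0 h, and Ctrl 80 and 98.9 against 60.1 and 72.4. The 3 h libraries lay above the 0 h libraries in each line, which on its own says little with 2 libraries a group. BIRC2 rose by log2 0.79 (SE 0.17, adjusted p = 0.00382) in wt and 0.67 (SE 0.17, 0.00873) in SoF, and the value in Ctrl was 0.43 (SE 0.17, 0.0967). The wt call was lost without 0 h replicate 1 (0.72), and the SoF call without 0 h replicate 1 (0.58) or 3 h replicate 2 (0.55).

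NFKB1, which encodes p105 and its product p50, rose between 1 and 2 h and was still above 0 h at 3 h. Its levels in wt were 58.2 and 56.9 CPM at 0 h, 49.5 and 79.6 at 1 h, 102 and 223 at 2 h, and 134 and 135 at 3 h. In SoF they were 69.4 and 80.4, then 64.2 and 64.5, 173 and 202, and 137 and 148 CPM. In Ctrl they were 78.6 and 73.6, then 74.6 and 58.4, 204 and 234, and 132 and 141 CPM. The 2 h libraries lay above all 0 h and 1 h libraries of their line, and in SoF and Ctrl also above the 3 h libraries. At 3 h the change was log2 1.22 (SE 0.24, adjusted p = 0.00184) in wt, 0.93 (SE 0.24, 0.00888) in SoF and 0.84 (SE 0.24, 0.0211) in Ctrl. The SoF call was lost without 3 h replicate 2 (0.87), and the Ctrl call without 0 h replicate 2 (0.79) or either 3 h library (0.89 and 0.80).

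NFKBIE, the gene of IkB epsilon, was the member called lower at 3 h. In wt it read 106 and 79.8 CPM at 0 h and 42.9 and 55.2 at 3 h. In SoF it read 122 and 71.8 at 0 h and 45.2 and 50.6 at 3 h, and in Ctrl 153 and 83.7 at 0 h and 55.4 and 56.2 at 3 h. No 3 h library reached a 0 h library of its line. It fell by log2 0.92 in wt (SE 0.29, adjusted p = 0.0463), 1.02 in SoF (SE 0.30, 0.0185) and 1.09 in Ctrl (SE 0.29, 0.0154). The 0 h libraries differed, and replicate 1 was the higher in each line. The wt call was lost with any of its 4 libraries left out (-0.72 to -1.11), and the SoF and Ctrl calls without 0 h replicate 1 (-0.57 in each) or either 3 h library (-0.94 and -1.10 in SoF, -1.08 and -1.10 in Ctrl).

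**Figure D2:**
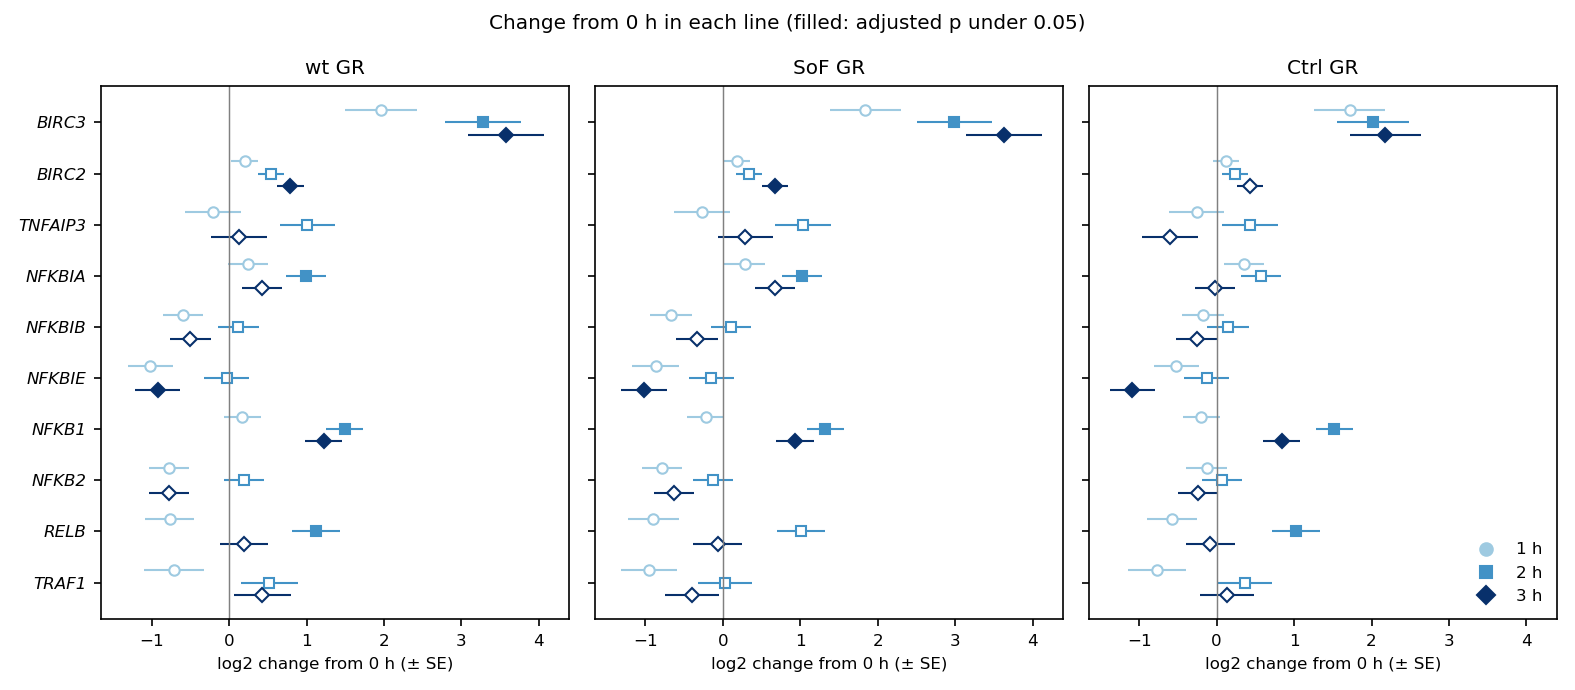
The log2 change from 0 h with its SE for each member at 1, 2 and 3 h in wt, SoF and Ctrl GR cells, with filled symbols for an adjusted p under 0.05. BIRC3 lies farthest to the right in each panel (3.57, 3.63 and 2.18 at 3 h), and NFKBIE is filled on the left at 3 h (-0.92, -1.02 and -1.09).

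At 2 h against 0 h, 4 members were called higher in wt (3.39% of all tested genes), 3 in SoF (4.2%) and 3 in Ctrl (5.58%), and none lower. BIRC3 changed by log2 3.28 in wt (SE 0.49, adjusted p = 0.000338), 2.99 in SoF (SE 0.48, 0.000394) and 2.02 in Ctrl (SE 0.46, 0.00854). NFKB1 changed by 1.49 in wt (adjusted p = 0.000875), 1.32 in SoF (0.00148) and 1.52 in Ctrl (0.000398). These 2 genes were called higher in all 3 lines, as were 1.92% of tested genes. The wt call of NFKB1 was lost without 2 h replicate 2 (0.80), and the Ctrl call of BIRC3 without 0 h replicate 2 (1.78).

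NFKBIA, which encodes IkB alpha, the classical feedback inhibitor, was called at 2 h in wt (log2 0.99, SE 0.26, adjusted p = 0.0299) and SoF (1.02, SE 0.26, 0.0207), with 0.57 in Ctrl (SE 0.26, 0.182). In wt it read 647 and 417 CPM at 0 h, 534 and 723 at 1 h, 1049 and 1057 at 2 h, and 752 and 675 at 3 h. In SoF the levels were 618 and 343, then 619 and 550, 1054 and 888, and 752 and 778 CPM, and in Ctrl 598 and 437, 702 and 619, 573 and 967, and 453 and 570 CPM. The 2 h libraries were the highest in wt and SoF, and in Ctrl 1 of the 2 fell among the 0 h libraries. The wt call was lost without 0 h replicate 2 (0.70) or either 2 h library (0.98 and 0.96), and the SoF call without 0 h replicate 2 (0.64) or 2 h replicate 1 (0.89).

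RELB, the subunit that pairs with the NFKB2 product in the noncanonical arm, had a peak at 2 h in each line. In wt it read 47.9 and 24.3 CPM at 0 h, 11.5 and 30.7 at 1 h, 78.3 and 79.3 at 2 h, and 37.3 and 45.2 at 3 h. In SoF the levels were 49.9 and 42.6, then 25.1 and 24.4, 98.8 and 87.5, and 39 and 49.1 CPM. In Ctrl they were 52.8 and 37.4, then 36.4 and 24.4, 73.5 and 111, and 38.6 and 47.2 CPM. Both 2 h libraries exceeded both 1 h and both 3 h libraries in all 3 lines for RELB alone of the 10 members, a pattern held by 1.55% of tested genes. Against 0 h the 2 h change was log2 1.12 in wt (adjusted p = 0.0413), 1.01 in SoF (0.0603) and 1.03 in Ctrl (0.046). The wt call was lost without 0 h replicate 2 (0.72) or either 2 h library (1.12 and 1.10), and the Ctrl call without 0 h replicate 2 (0.79) or 2 h replicate 2 (0.69), and DESeq2 made neither call.

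The step from 1 to 2 h was tested after the time courses had been seen. It called 6 members higher in wt (8.87% of all tested genes), 3 in SoF (11.1%) and 3 in Ctrl (7.26%), and none lower. RELB rose by log2 1.89 in wt (SE 0.33, adjusted p = 0.00116), 1.91 in SoF (SE 0.33, 0.000536) and 1.60 in Ctrl (SE 0.32, 0.00275). NFKB1 rose by 1.33 (SE 0.24, 0.00174), 1.54 (SE 0.24, 0.000266) and 1.72 (SE 0.24, 0.000115). These 2 genes were called higher in each line, as were 5.12% of tested genes. Over the members the median change was 1.11 (wt), 0.87 (SoF) and 0.36 (Ctrl), beside -0.02, -0.04 and -0.03 over all genes. Both 2 h libraries lay above both 1 h libraries for all 10 members in wt and in SoF, and for NFKB1, RELB and TRAF1 in Ctrl, against 29.1%, 30.7% and 28.9% of tested genes.

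TNFAIP3 (A20), which trims ubiquitin chains to shut the pathway down, rose over that step by log2 1.22 in wt (SE 0.37, adjusted p = 0.0312) and 1.30 in SoF (SE 0.37, 0.0177), with 0.69 in Ctrl (SE 0.36, 0.23). In wt its levels were 270 and 247 CPM at 0 h, 102 and 344 at 1 h, 415 and 627 at 2 h, and 284 and 282 at 3 h. In SoF they were 311 and 256, then 217 and 253, 575 and 584, and 328 and 364 CPM, and in Ctrl 413 and 280, 397 and 182, 371 and 565, and 226 and 232 CPM. The 2 h libraries were the highest in wt and SoF, and in Ctrl 1 of them fell among the 0 h and 1 h libraries. Against 0 h edgeR called TNFAIP3 at no time in any line with the low-count filter and all lines in the fit. The 2 h change was called in SoF with that line fitted alone (1.04, adjusted p = 0.00126), and with no low-count filter in wt (0.98, 3.63e-07) and SoF (1.03, 4.68e-08), as was the 3 h change in Ctrl (-0.60, 0.00519). The other wt calls over the step were NFKBIE (0.99), NFKB2 (0.97) and TRAF1 (1.23), and TRAF1 was also called in Ctrl (1.14).

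The 1 h libraries disagreed, and several of these calls rest on them. In wt at 1 h replicate 1 was below replicate 2 in all 10 members, by a median of log2 0.88, where the median over all tested genes was 0.01. Without it the wt step read 0.60 for TNFAIP3, 0.62 for NFKBIE, 1.02 for NFKB1, 0.60 for NFKB2 and 0.74 for TRAF1, with none of them called. Leaving out a 2 h library of wt also ended 5 of the calls: NFKB1 (0.64), TNFAIP3 (0.88) and NFKB2 (0.87) without replicate 2, and NFKBIE (1.06 and 0.89) and TRAF1 (1.37 and 1.03) without either. RELB kept its call in wt with each library left out. In SoF TNFAIP3 lost its call without either 1 h library or without 2 h replicate 1 (1.20 to 1.42). In Ctrl RELB lost it without 1 h replicate 2 (1.33) or 2 h replicate 2 (1.28), and TRAF1 without these (0.63 and 1.10), without 2 h replicate 1 (1.18) and with DESeq2. In Ctrl at 1 h replicate 1 was the higher in 9 of 10 members, by up to log2 2.24 for BIRC3. Shared shifts were also seen at other times. At 0 h replicate 1 was the higher in 9 (wt), 8 (SoF) and 9 (Ctrl) members, by a median log2 of 0.23, 0.40 and 0.49. Replicate 2 was the higher in all 10 in wt at 2 h and SoF at 3 h, and in 9 in Ctrl at 2 h. SoF at 1 h was even, with 5 and 5. A count of members is thus not a count of separate results.

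At 1 h against 0 h no member was called by DESeq2, or by edgeR with the low-count filter and all lines in the fit. That edgeR fit called 0.156%, 0.165% and 0.0465% of all tested genes in wt, SoF and Ctrl. At an unadjusted p under 0.05 there were 5, 6 and 2 members, beside 2602, 1645 and 423 of all 23651 tested genes. The BIRC3 change was log2 1.96 in wt (SE 0.47, adjusted p = 0.1), 1.84 in SoF (SE 0.46, 0.169) and 1.72 in Ctrl (SE 0.46, 0.88). Without wt 1 h replicate 1 it was 2.57 and called, and without Ctrl 1 h replicate 2 it was 2.43 and called. Without wt 1 h replicate 2 it was 0.85, and without Ctrl 1 h replicate 1 it was 0.20. With no low-count filter edgeR called BIRC3, among others, in wt (1.95, adjusted p = 1.65e-25) and SoF (1.77, 2.06e-21). In Ctrl that setting also called BIRC3 (1.69, 5.41e-19). With SoF fitted alone edgeR called BIRC3 (1.83, 0.000245) and RELB (-0.91, 0.0449).

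From 2 to 3 h no member was called in any line by edgeR with the low-count filter and all lines in the fit. That fit called 0.681% of tested genes in wt, 2.53% in SoF and 1.15% in Ctrl. At an unadjusted p under 0.05 there were 6, 2 and 5 members, beside 2046, 3244 and 2196 of all 23651 tested genes. DESeq2 called 1 (NFKB2, in wt), 0 and 0 members, beside 306, 798 and 404 of 48707 genes with a count. Both 3 h libraries were below both 2 h libraries for 6 members in wt, 7 in SoF and 6 in Ctrl, against 22.4%, 24.7% and 23.1% of tested genes. TNFAIP3, NFKBIA, NFKBIE and RELB did so in all 3 lines, as did 5.68% of tested genes. The RELB change over this step was log2 -0.93 in wt (SE 0.31, adjusted p = 0.267), -1.08 in SoF (SE 0.31, 0.0702) and -1.11 in Ctrl (SE 0.31, 0.104). BIRC3 and BIRC2 had values above 0 over the step, at 0.30, 0.64 and 0.16 for BIRC3 and 0.25, 0.33 and 0.19 for BIRC2 in wt, SoF and Ctrl. With SoF fitted alone edgeR called BIRC3 (0.63, adjusted p = 0.0438), TNFAIP3 (-0.75, 0.0167) and RELB (-1.09, 0.00322). With Ctrl fitted alone it called RELB (-1.10, 0.0228). With no low-count filter TNFAIP3, NFKBIE and RELB were called in each line, among others.

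NFKBIB and NFKB2, the genes of IkB beta and of p100, which is processed to p52, were not called against 0 h at any time in any line by edgeR with the low-count filter, all 24 libraries in the fit and no replicate block. NFKBIB ranged over the 8 libraries of a line from 15.1 to 32.1 CPM in wt, 13.7 to 31.5 in SoF and 17 to 31.4 in Ctrl. NFKB2 ranged from 40.4 to 123 CPM in wt, 54.9 to 122 in SoF and 61 to 99.3 in Ctrl. At 3 h the NFKB2 change was log2 -0.78 in wt (SE 0.26, adjusted p = 0.0583), -0.63 in SoF (SE 0.26, 0.0934) and -0.24 in Ctrl (SE 0.26, 0.584). DESeq2 called the NFKB2 change in wt (-0.78, adjusted p = 0.0329), and edgeR with a replicate block also did (-0.79, 0.0493), while the change in SoF was called with that line fitted alone (-0.63, 0.0343). With no low-count filter NFKB2 was called at 1 and 3 h in both of these lines, and without wt 0 h replicate 2 at 3 h in wt (-1.07, 0.029).

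Whether the response differed between the lines was tested as the difference of the changes from 0 h. None of the 10 members was called in any of the 9 such tests (3 pairs of lines at 3 times) with edgeR or with DESeq2. At 1 and 2 h no tested gene was called and no member had an unadjusted p under 0.05. At 3 h edgeR called 0.0127% of all tested genes for SoF minus Ctrl and 0% for SoF minus wt and Ctrl minus wt. BIRC3 alone had an unadjusted p under 0.05, for SoF minus Ctrl and for Ctrl minus wt, as had 671 and 845 of all 23651 tested genes. Its 3 h response was higher in SoF than in Ctrl by log2 1.45 (SE 0.64; 2 SE either side reach 0.18 and 2.72), and in Ctrl lower than in wt by 1.40 (-1.40, SE 0.64; -2.67 to -0.12). Between SoF and wt the BIRC3 difference was 0.05 (SE 0.64; -1.22 to 1.32). The SE of a gene rests on its spread over all 12 groups. For BIRC3 this includes the 1 h pairs of wt and Ctrl, which were farther apart than the 0 h and 3 h pairs compared here. How far they widen these intervals was not tested. With no low-count filter both differences of Ctrl were called (1.47, adjusted p = 2.42e-06, and -1.40, adjusted p = 2.93e-05). The study selected BIRC3 on these libraries as a gene with stronger activation in SoF than in Ctrl. Its difference in these libraries is therefore a description and not independent evidence. Apart from these libraries, the study reports by RT-qPCR that BIRC3 was expressed more in SoF cells after dexamethasone. Those RT-qPCR data were not examined here.

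The next members in size for SoF minus Ctrl were TNFAIP3 at 0.88 (-0.14 to 1.91) and NFKBIA at 0.69 (-0.04 to 1.41), and the lowest was TRAF1 at -0.53 (-1.53 to 0.47). For SoF minus wt the members ran from -0.83 for TRAF1 (-1.85 to 0.18) to 0.25 for NFKBIA (-0.48 to 0.97). For Ctrl minus wt they ran from -1.40 for BIRC3 to 0.54 for NFKB2 (-0.20 to 1.27). The member median was 0.08, -0.02 and -0.33, against 0.02 or less in size over all genes. The intervals of BIRC2, the narrowest, reached 0.72, -0.61 and -0.84 at their far ends.

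**Figure D3:**
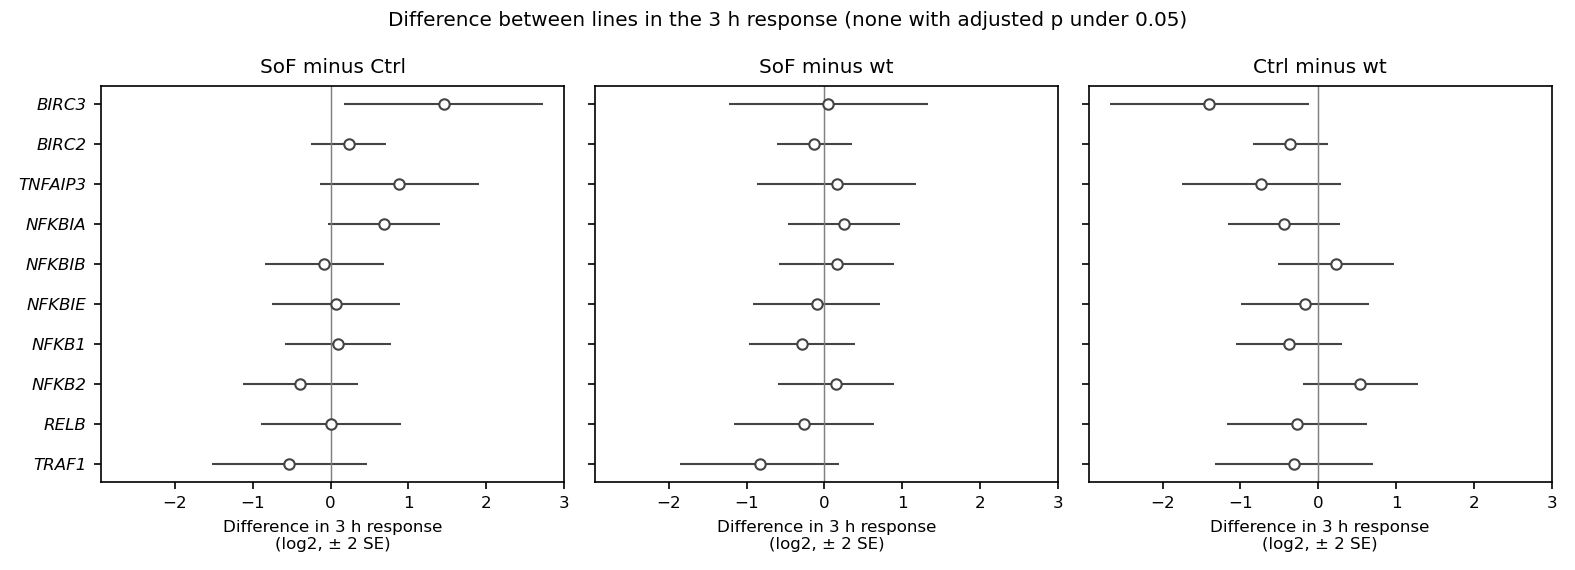
Difference between lines in the 3 h log2 response, with bars of 2 SE, for each member. Only BIRC3 has bars that clear 0, for SoF minus Ctrl (1.45) and Ctrl minus wt (-1.40), and no member has an adjusted p under 0.05.

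TRAF1, an adaptor of TNF receptors and itself an NF-kB target, was the member called between lines. In wt its levels were 14 and 13.5 CPM at 0 h, 4.94 and 11.7 at 1 h, 17.4 and 22 at 2 h, and 13.2 and 23.9 at 3 h. In SoF they were 39.4 and 26.6, then 17 and 17.4, 38.5 and 29, and 21.2 and 29.1 CPM, and in Ctrl 35.9 and 18.5, 22.8 and 9.51, 34.5 and 36.5, and 32.2 and 27.9 CPM. At 0 h and at 2 h both libraries of each mutant line lay above both of wt. Over the 8 libraries of a line, without regard to time, TRAF1 was higher in SoF than in wt by log2 0.86 (SE 0.26, adjusted p = 0.0436), where 8.02% of all genes tested in that fit were called. Ctrl minus wt gave 0.86 (SE 0.26, adjusted p = 0.0605, 4.77% of genes called) and SoF minus Ctrl 0.01 (SE 0.26, -0.52 to 0.53). The SoF call was lost with no low-count filter (0.83) and with the 0 h libraries alone (1.27). TRAF1 and NR3C1 RNA were both lowest in wt, and whether these are linked was not tested.

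No other member was called for SoF minus wt, and no member was called for Ctrl minus wt or SoF minus Ctrl (3.61% of genes called) with edgeR. At an unadjusted p under 0.05 there were 1 and 0 members, beside 3988 and 3019 of all 21122 genes tested on line alone. DESeq2 called 1 (TRAF1) and 0 members, beside 1440 and 1038 of 48707 genes with a count. The fit on line alone takes no account of time. With an additive time term edgeR also called BIRC3 for SoF minus wt (0.63, adjusted p = 0.0486), and TRAF1 (0.87, 0.000882) and NFKBIE (0.41, 0.0351) for Ctrl minus wt. BIRC3 without that term gave 0.64 for SoF minus wt (SE 0.57), -0.29 for Ctrl minus wt (SE 0.57) and 0.92 for SoF minus Ctrl (SE 0.58). With 0 h libraries alone these were 0.72, 0.75 and -0.03. Before treatment the BIRC3 libraries of both mutant lines lay above those of wt, and neither difference passed the test (adjusted p = 0.414 and 0.441).

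Other genes of the pathway were read from lists of its parts. Of 13 tested receptors and TRAF adaptors, 5 were called higher at 3 h in wt and none lower, and 5 higher and 1 lower in SoF and in Ctrl (median 0.25, 0.41 and 0.51), where in either direction 10.7% of all tested genes were called in wt, 19.3% in SoF and 14.2% in Ctrl. They included the receptor of interleukin 1, IL1R1, at log2 1.45 (wt), 2.16 (SoF) and 1.35 (Ctrl), the lymphotoxin receptor LTBR at 1.33, 1.34 and 1.20, and TRAF2, the adaptor that recruits BIRC2 and BIRC3, at 0.97, 0.79 and 0.67. TRAF3, the adaptor that keeps the noncanonical kinase low, gave 1.56, 1.43 and 1.49, and the TNF receptor TNFRSF1A 0.91, 1.09 and 1.03. The receptor called lower was TLR4, in SoF (-0.95) and Ctrl (-0.68). Of 11 kinases, adaptors and subunits that act upstream of IkB, 1 was called higher in wt, the IKK-related kinase IKBKE (0.79, with 0.70 in SoF and 1.16 in Ctrl), and the counts higher and lower were 2 and 2 in SoF and 1 and 2 in Ctrl. The others were TAB1 (0.64 in SoF), TAB3 (-0.75 in SoF, -0.69 in Ctrl) and TBK1 (-0.65 and -0.74), which act with or beside the IKK complex. Of 5 further subunit and IkB genes, NFKBIZ, a nuclear IkB, was called lower in each line (-1.13, -1.32 and -1.35) and 4 were not called.

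Of 12 ubiquitin editors and A20 partners, 1 was called in wt, a share near the 10.7% of all tested genes. This was RNF11, a partner of A20, at -0.48 (-0.54 in SoF and -0.61 in Ctrl), and SoF and Ctrl each had 3 higher and 2 lower. In either direction 10.7% of all tested genes were called in wt, 19.3% in SoF and 14.2% in Ctrl, for each list here. The A20 partner TNIP2 (0.86 in SoF, 0.77 in Ctrl) and SHARPIN (0.78 and 0.72), of the linear ubiquitin ligase, were higher in both, OTUD7B (0.48) in SoF, and RNF31 (0.78), the catalytic subunit of that ligase, in Ctrl. TNIP3 was lower in SoF (-1.76, SE 0.56), at a level near the floor (mean 0.722 CPM), and TAX1BP1 was lower in Ctrl (-0.57). Of 6 tested genes of the other inhibitor of apoptosis list, HTRA2, a protease that counters these inhibitors, was called higher in each line (0.94, 1.10 and 1.13). In SoF 2 more were called, NAIP (-0.73) and DIABLO (-0.45), a mitochondrial antagonist of the inhibitors. Of 18 tested inflammatory NF-kB targets, 5 were higher and 1 lower in wt, 6 and 1 in SoF, and 2 and 2 in Ctrl (median 0.57, 0.42 and 0.25). The shares of all tested genes were again 10.7%, 19.3% and 14.2%. PTGS2, the inducible cyclooxygenase, fell in each line (-2.50, -3.20 and -3.65), and the cytokine gene LIF rose by 1.21, 1.05 and 1.05. BCL2L1, a survival factor, was called in wt (0.87) and SoF (1.09) and not in Ctrl (0.58). The other calls were GADD45B, a stress response gene, in each line (0.62, 0.60 and 0.67), CFLAR, an inhibitor of caspase activation, in wt (0.44) and SoF (0.53), the chemokine gene CCL2 in wt (1.27), CCL20 (1.30) and IL1A (1.77) in SoF, and CD83 in Ctrl (-0.98).

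Of 8 genes known to be induced by glucocorticoids, 7 were called higher in wt, 7 in SoF and 5 in Ctrl, where DUSP1 was called lower (-1.40). Among all tested genes 10.7% (wt), 19.3% (SoF) and 14.2% (Ctrl) were called in either direction. FKBP5, a chaperone of the receptor, changed by log2 3.11 in wt, 3.68 in SoF and 2.39 in Ctrl, and ZBTB16 by 5.82, 6.92 and 5.33. The list's median reached 2.10 (wt), 2.21 (SoF) and 1.04 (Ctrl), and BIRC3 stood above it in each line.

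**Figure D4:**
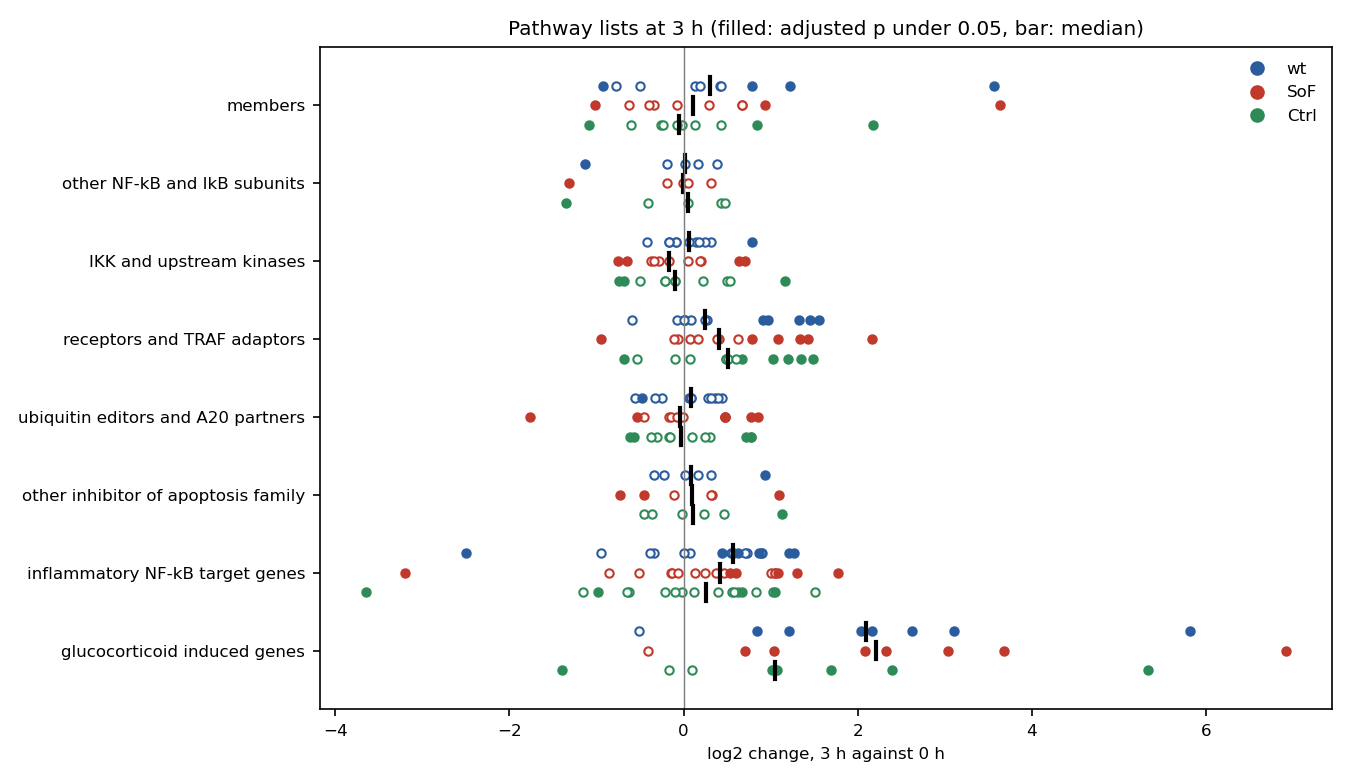
The log2 change at 3 h against 0 h of each tested gene in the members and 7 further lists, by line, with filled points for an adjusted p under 0.05 and black bars at list medians. The glucocorticoid list sits farthest right (medians 2.10, 2.21 and 1.04), and PTGS2 farthest left (-2.50, -3.20 and -3.65).

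Genes were ranked by likeness to BIRC3 over the 12 group means of log2 CPM, among 19702 genes with a mean of at least 1 CPM. Groups have times and lines in common and are not independent of each other, so Pearson's r is a description. The closest were IP6K3 (0.982), GGT5 (0.980), KDM1A (0.973), DNER (0.972) and the RNA gene DUBR (0.971). IP6K3 changed at 3 h by log2 4.49 in wt, 4.67 in SoF and 3.66 in Ctrl, and KDM1A by 0.65, 0.76 and 0.51. Among the members r with BIRC3 was 0.891 for BIRC2, 0.751 for NFKB1, 0.727 for NFKBIA and 0.416 for TNFAIP3, and the lowest was -0.456 for NFKBIE.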

How the data were processed

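Newly made RNA was measured in 24 libraries of 3 U2OS lines at 4 times. The authors tagged molecules with UMI-tools 1.1.2, trimmed with Trim Galore 0.6.6, aligned to hg38 with STAR 2.7.3a, removed duplicates and counted reads over exons with featureCounts on GENCODE 39. The deposited values are these raw counts per gene. That strand was used is stated by the table's title alone. Symbols and positions came from GENCODE 44 (61415 of 61533 identifiers matched, 99.8%), and promoter windows from RefSeq. Groups followed the labels, and no library was left out.

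Counts were tested with the edgeR 4.0.16 quasi-likelihood test (limma 3.58.1, R 4.3.3, TMM, filterByExpr with minimum count 10 and total 15, Benjamini-Hochberg adjustment over all tested genes). Calls needed an adjusted p under 0.05. The fit over 12 groups tested 23651 genes. A fit on line alone, as in the study, tested 21122. The SE is the log2 change divided by the square root of F. CPM uses TMM totals, and log2 CPM a prior count of 2. Intervals are 2 SE. The script was checked on simulated counts. Libraries of the same group differed by 6.16 to 22.6 times counting error (chi-square per degree of freedom).
The members and lists were chosen with earlier results of these data known. All 10 members were named. From each list up to 3 genes were named, those called in wt at 3 h with the smallest p whose 3 h libraries both lay on the same side of both 0 h libraries, and the 5 genes most like BIRC3. Other genes of the lists were named after their values were seen. Alternatives were DESeq2 1.42.0, its size factors, no low-count filter, the replicate number as a block, each line fitted alone, a time term, the 0 h libraries alone, and each library left out.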

Additional observations from a re-analysis of the deposited data

Results flagged for a closer look

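TRAF1 in the 8 wt libraries had 1 library far from the others. The lowest, 1 h replicate 1 at 4.94 CPM, lay a gap away from the next that was 0.546 of the whole range on the log2 scale. Of 30 sets of 8 libraries tested (10 genes in 3 lines) this was the 1 that passed Dixon's limit, which chance passes in about 1 in 20 sets. The sets mix times, and groups of 2 libraries were not tested. The same library was below its partner in all 10 members.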

How the results depend on the processing

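Alternatives were computed for 147 changes and differences of members, of which 34 were called, and no called value changed sign. Among 882 values from other choices of method, 802 kept direction and call, 8 lost the call, 63 gained it and 9 changed sign, and among 588 with a library left out these were 481, 50, 7 and 50. A lone library left in a group is assumed to vary like the other groups. With no low-count filter the members called were 4 in wt, 5 in SoF and 1 in Ctrl at 1 h, 5 in SoF at 2 h, 9 in SoF from 1 to 2 h, 4, 4 and 5 in wt, SoF and Ctrl from 2 to 3 h, 1 (BIRC3) for the 3 h response of SoF minus Ctrl and of Ctrl minus wt, and 0 for SoF against wt over all times, where TRAF1 in SoF minus Ctrl became -0.01. The cause was not tested. DESeq2 called 1 in wt from 2 to 3 h, 5 in SoF from 1 to 2 h and 1 for Ctrl against wt. SoF fitted alone gave 2 at 1 h, 5 at 2 h, 9 from 1 to 2 h and 3 from 2 to 3 h, and Ctrl alone 1 from 2 to 3 h. A time term called 2 for SoF against wt (TRAF1, BIRC3) and 2 for Ctrl against wt (TRAF1, NFKBIE), and turned BIRC3 in Ctrl minus wt to 0.05. The 0 h libraries alone called 0 for SoF against wt and turned 7 values: BIRC3 (-0.03), TNFAIP3 (-0.29), NFKBIA (-0.11) and RELB (0.03) in SoF minus Ctrl, BIRC2 in SoF minus wt (0.07), and BIRC3 (0.75) and BIRC2 (0.02) in Ctrl minus wt.

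Replicates 1 and 2 carry a number but no stated pairing between groups. The paper reports that replicates went through biotinylation and pulldown in pairs. If these pairs are the 2 libraries of a group, pulldown and group cannot be told apart. Over 66 pairs of groups the correlation of same-numbered deviations ran from -0.22 to 0.57 (median 0.04, 21 over 0.1). The mean correlation was above 0 for 11 of 12 groups, and the 0 h groups gave 0.39 to 0.57 among themselves. Since not every pair was over 0.1, the numbers were not taken to pair the libraries. The replicate block gave 5 calls in SoF from 1 to 2 h against 3 without it, and 6 with a block in each line, and it moved no other count by over 1.5 times. It added calls for BIRC2 in wt at 2 h (0.55, adjusted p = 0.0315), NFKB2 in wt at 3 h (-0.79, 0.0493), BIRC3 in wt from 1 to 2 h (1.31, 0.0475), and NFKBIA (0.73, 0.0437) and NFKBIB (0.77, 0.0475) in SoF from 1 to 2 h.

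Leaving out 1 library moved the calls between 0 and 1 in wt at 1 h, 1 and 4 in wt at 2 h, 2 and 4 in wt at 3 h, 1 and 4 in SoF at 3 h, 0 and 1 in Ctrl at 1 h, 1 and 3 in Ctrl at 2 h, 1 and 2 in Ctrl at 3 h, 1 and 8 in wt from 1 to 2 h, and 1 and 4 in Ctrl from 1 to 2 h. Values that changed sign, none of them called, were at 3 h RELB (-0.19 to 0.75) and TRAF1 (-0.05 to 0.81) in wt, NFKBIB (-0.66 to 0.10) and RELB (-0.25 to 0.08) in SoF, and NFKBIA (-0.23 to 0.24), NFKBIB (-0.57 to 0.17), RELB (-0.30 to 0.21) and TRAF1 (-0.26 to 0.72) in Ctrl. From 1 to 2 h in Ctrl they were BIRC3 (-0.43 to 1.82), BIRC2 (-0.11 to 0.33, and -0.01 to 0.44 from 2 to 3 h), NFKBIA (-0.20 to 0.56), NFKBIB (-0.09 to 0.64) and NFKB2 (-0.20 to 0.51). In the 3 h response they were, for SoF minus Ctrl, NFKBIB (-0.50 to 0.36), NFKBIE (-0.44 to 0.51), NFKB1 (-0.01 to 0.20) and RELB (-0.28 to 0.23). For SoF minus wt they were BIRC3 (-0.09 to 0.16), NFKBIA (-0.13 to 0.74), NFKBIB (-0.17 to 0.59), NFKBIE (-0.43 to 0.34), NFKB2 (-0.23 to 0.45) and RELB (-0.81 to 0.13), and for Ctrl minus wt NFKBIB (-0.08 to 0.66), NFKBIE (-0.55 to 0.34), RELB (-0.83 to 0.11) and TRAF1 (-0.70 to 0.28). The lowest count of any member was 57, for TRAF1, and how much of its spread is counting error was not tested.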
